A study of Mus musculus with 9 samples.

Results

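The 9 genes described here encode the upstream part of interferon signalling in mouse liver endothelial cells. They comprise the receptor chains Ifnar1, Ifnar2, Ifngr1 and Ifngr2, the signal transducer Stat2 with its partner Irf9, and the interferon regulatory factors Irf1, Irf7 and Irf8. They were taken by symbol from a table of 52636 genes, and all 9 were present and passed the count filter. The comparison set 5 libraries whose labels give a double knockout of Erg and Fli1 against 4 control libraries labelled wild type. Both groups came from mice given tamoxifen to induce gene deletion, and cells were taken at day 7. Endothelial cells were sorted from dissociated liver as live, CD45-, CD31+ cells that had bound a VE-cadherin antibody injected into the living mouse, and their polyadenylated RNA was sequenced. The labels used here name neither the deleted alleles, the driver of the deletion nor the age of the mice, and do not say whether each library came from its own animal. The p-values therefore measure the spread between these libraries, which may in part be technical.

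Interferons signal through receptors built of paired chains. IFNAR1 and IFNAR2 bind type I interferons, and IFNGR1 and IFNGR2 bind interferon gamma. Kinases of the JAK family on the receptor tails phosphorylate STAT proteins. STAT2 and IRF9 are subunits of ISGF3, the complex that binds the interferon-stimulated response element (ISRE), whereas STAT dimers bind the gamma-activated site (GAS). IRF1, IRF7 and IRF8 are transcription factors of a family that binds ISRE-like sequences. Several of these components are themselves interferon-induced, so the pathway feeds back on its own parts. Liver endothelium lines the sinusoids and meets blood-borne microbial products and cytokines directly.

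The libraries held between 26791371 and 36401682 counts, so that 1 count was worth between 0.0260 and 0.0368 CPM (counts scaled to a library total of 1000000), and the 9 genes had between 1739 and 15486 counts in a library. Erg averaged 142.9 ± 10.9 CPM in the libraries labelled knockout and 311.6 ± 17.8 CPM in controls (SD, n = 5 and 4; log2 fold change -1.12, adjusted p = 2.6e-05). Fli1 went against its label, with 147.4 ± 22.5 CPM in the libraries labelled knockout and 100.1 ± 8.01 CPM in controls (log2 fold change 0.56, adjusted p = 0.00636). Counts over a whole gene do not show whether an exon was removed, and the deleted exons are not given in the labels. Directions below are therefore relative to the label of each library. Cdh5 and Pecam1, which encode the sorted proteins VE-cadherin and CD31, lay at 2158 and 1408 CPM in the libraries labelled knockout and at 2190 and 1482 CPM in controls. Over 10 endothelial markers the sums were 13436 to 18695 CPM in the libraries labelled knockout and 21430 to 24139 CPM in controls. Of these markers 3 (Tek, Tie1 and Clec4g) were called lower and 7 did not pass, where 14.8% of all genes tested were lower. Lyve1, which did not pass (log2 fold change -1.99, edgeR adjusted p = 0.200), was uneven. It had 14.5, 937, 260, 29.5 and 28.1 CPM in libraries labelled knockout 1 to 5, and 815 to 1191 CPM in controls. Emcn, also not passing, went the other way (log2 fold change 0.40). Hepatocyte markers summed to 16.9 to 199.5 CPM in the libraries labelled knockout and 153 to 358 CPM in controls, where edgeR called 0 of 8 (4 lower at an unadjusted p under 0.05, 4 by DESeq2 and 3 by limma-voom). Markers of Kupffer cells, the resident liver macrophages, summed to between 123.3 and 847.6 CPM in the libraries labelled knockout and between 164.0 and 599.7 CPM in controls. By counts of Xist and a Y-linked gene, 2 libraries labelled knockout and 3 controls were male, and 3 libraries labelled knockout and 1 control were female.

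The members were called in both directions. Both chains of the type I receptor and Irf8 were higher in the libraries labelled knockout. Stat2, Irf1 and Irf7 were lower. The interferon gamma receptor chains and Irf9 did not pass the test. Of all 14583 genes tested, 29.3% were called at an adjusted p under 0.05, 14.5% higher and 14.8% lower. Of the 9 members 6 were called (3 in each direction), a larger share, with no test of that difference. The members were chosen with earlier results of these data known, so the larger share is no independent evidence about the pathway. The group ranges were separate for 4 of the 9 members, 3 with the libraries labelled knockout on top (13.2% of all genes tested) and 1 with them below (13.8%). The median log2 fold change was -0.04 over the members and 0.01 over all genes. In sorted cells measured in bulk, fewer cells of a type and less RNA per cell cannot be told apart.

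**Figure D1:**
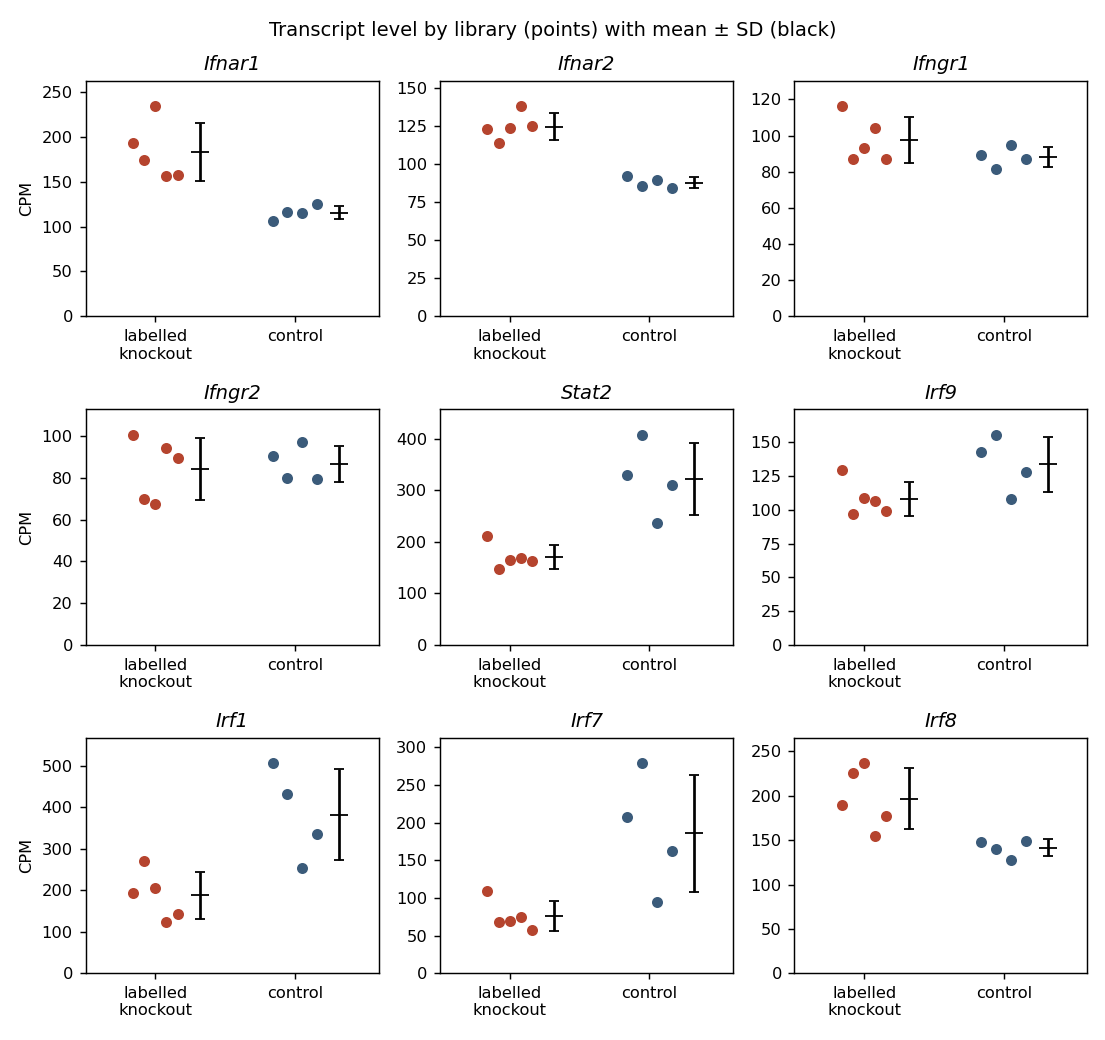
Level of each of the 9 genes in CPM (linear axis from 0) in each library, as points, with the mean and SD of each group in black; the 5 libraries labelled knockout are on the left of each panel and the 4 controls on the right. For Ifnar1, Ifnar2 and Irf8 every library labelled knockout lies above every control, and for Stat2 every one lies below; Irf1 and Irf7 overlap by 1 library each.

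Ifnar1, the chain that carries the kinase TYK2, lies at chr16:91485238-91507441 on the plus strand of GRCm38 (ENSMUSG00000022967). It had 192.4, 174.0, 233.7, 156.6 and 156.8 CPM in libraries labelled knockout 1 to 5, and 106.6, 116.2, 114.6 and 124.7 CPM in controls 1 to 4. Every library labelled knockout lay above every control, and library 3 was the highest. The means were 182.7 ± 32.1 CPM in the libraries labelled knockout and 115.5 ± 7.43 CPM in controls (SD, n = 5 and 4), a 1.58-fold difference. On the log2 scale it was 0.66 ± 0.12 (SE; 95% interval 0.38 to 0.94; edgeR adjusted p = 0.00357). The spread among the libraries labelled knockout was wider than among the controls.

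Ifnar2, the chain with the higher affinity for ligand and the carrier of JAK1, lies upstream in the same cluster at chr16:91372783-91405589 on the plus strand (ENSMUSG00000022971). It had 122.9, 113.6, 123.5, 137.7 and 124.5 CPM in libraries labelled knockout 1 to 5, and 91.8, 85.4, 89.4 and 84.1 CPM in controls 1 to 4. The groups were again separate, and this was the tightest difference of the 9 genes, with a log2 fold change of 0.51 ± 0.07 (SE; 95% interval 0.35 to 0.66; adjusted p = 7.25e-04). Both type I chains kept their calls under all 19 alternative settings, with adjusted p between 1.32e-05 and 0.0218 for Ifnar1 and between 1.62e-10 and 0.0168 for Ifnar2. Per length, Ifnar2 stood at 0.943 to 1.57 times the level of Ifnar1 in TPM (counts per exon length, scaled to a total of 1000000) in the libraries labelled knockout and at 1.20 to 1.54 times in controls, so the balance between the chains overlapped between groups. The annotated gene Gm21970 shares 9.46% of the exon bases of Ifnar2 on the same strand and had 0 counts in every library.

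Erg and Fli1 encode ETS factors, whose sites have a GGAA core, so the sequence before each transcription start was searched for ETS, ISRE and GAS letters. RefSeq promoter windows (GRCm38.p6, 250 bases before to 50 after the start) were found for all 9 genes, 12 windows in all. The searched letters were CCGGAAG and AGGAAG for ETS sites, GAAANNGAAA for the ISRE and TTCNNNGAA for GAS, on both strands. Among 32851 windows of all genes, CCGGAAG occurred in 8.86%, AGGAAG in 35.4%, the ISRE letters in 3.44% and the GAS letters in 8.30%. The upstream stretches of the type I receptor genes are shown because both genes were higher and both hold ETS letters. Matches are in capitals. The stretch of Ifnar1 (chr16:91484965-91485094, plus strand) holds AGGAAG once and CCGGAAG at 231 and 147 bases before the start, and that of Ifnar2 (chr16:91372548-91372597, plus strand) holds GAS letters at 214 bases before the start that overlap AGGAAG on the opposite strand. Ifnar1 also has GAS letters across its start, which are not shown. Both Irf9 windows and the second window of Irf1 hold AGGAAG. These matches describe the letters and do not show binding.
Ifnar1: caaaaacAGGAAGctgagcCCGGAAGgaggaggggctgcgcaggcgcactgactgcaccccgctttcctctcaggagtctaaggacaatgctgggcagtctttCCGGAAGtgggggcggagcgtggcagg
Ifnar2: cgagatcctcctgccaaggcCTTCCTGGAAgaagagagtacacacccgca

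Neither chain of the interferon gamma receptor passed the test. Ifngr1, the ligand-binding chain (ENSMUSG00000020009, chr10:19591949-19610229, plus strand), had 116.2, 87.1, 93.0, 104.4 and 87.3 CPM in libraries labelled knockout 1 to 5, and 89.3, 81.5, 94.9 and 87.0 CPM in controls 1 to 4. The ranges overlapped, and the log2 fold change was 0.15 ± 0.10 (SE; 95% interval -0.07 to 0.37; adjusted p = 0.292). Ifngr2, the chain that carries JAK2 (ENSMUSG00000022965, chr16:91547072-91565623, plus strand), had 100.7, 69.8, 67.5, 94.3 and 89.6 CPM in libraries labelled knockout 1 to 5, and 90.6, 79.8, 97.1 and 79.5 CPM in controls 1 to 4. The log2 fold change was -0.04 ± 0.13 (SE; 95% interval -0.33 to 0.25; adjusted p = 0.847), and its sign changed under 5 of the 19 alternatives. The intervals of both genes leave out a 2-fold difference in either direction. The difference in fold change between the type I and the interferon gamma receptor chains was not tested. Neither promoter window held any of the searched letters.

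Ifnar2, Il10rb, Ifnar1 and Ifngr2 form a receptor cluster that spans 192.8 kb, and its neighbourhood was examined after the values had been seen. Il10rb encodes the chain that the receptors for interferon lambda and interleukin 10 share. It had 112.9, 105.9, 121.1, 125.0 and 108.2 CPM in libraries labelled knockout 1 to 5, and 74.7, 64.0, 78.0 and 66.1 CPM in controls 1 to 4. The groups were separate (log2 fold change 0.70 ± 0.08, SE; adjusted p = 3.58e-04). Within 100 kb on either side of the cluster 9 genes were tested, of which 5 were higher, 2 were lower and 2 did not pass. Of all genes tested, 14.5% were higher and 14.8% lower. The higher genes include Ifnar2, Il10rb and Ifnar1, around which the window was drawn, so this count is no result about the region. Both lower genes lie beyond Ifngr2: Tmem50b, with 35.2 CPM in the libraries labelled knockout and 70.2 CPM in controls (adjusted p = 0.0132), and Gart, a purine synthesis enzyme, with 29.7 CPM in the libraries labelled knockout and 58.2 CPM in controls (adjusted p = 3.98e-05). Son, an RNA splicing cofactor farther out on the same side, was higher, with 859.0 CPM in the libraries labelled knockout and 652.3 CPM in controls (adjusted p = 0.0388). The chromosome also carries Erg, 3.79 Mb beyond Ifngr2.

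**Figure D2:**
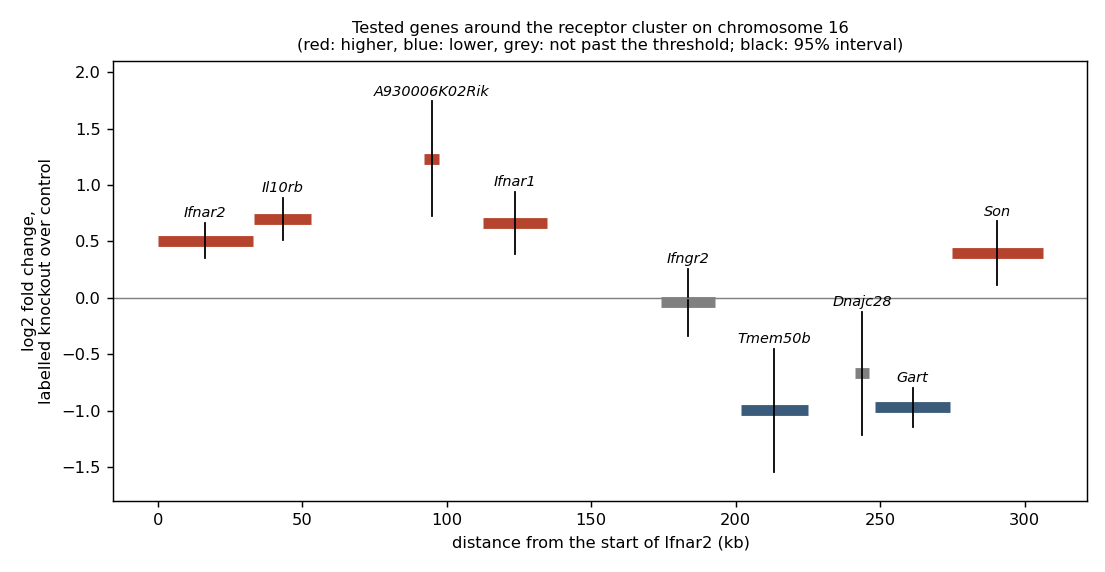
Log2 fold change, libraries labelled knockout over controls, of the 9 tested genes in and around the receptor cluster, drawn at their extent in kb from the start of Ifnar2 (coloured bars) with 95% intervals (black lines). Ifnar2, Il10rb, A930006K02Rik, Ifnar1 and, at the far end, Son lie above 0, Ifngr2 lies at -0.04, and Tmem50b and Gart lie near -1.

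Downstream of the receptors, Stat2 was lower. STAT2 is the subunit of ISGF3 that carries its strong activation domain. The gene (ENSMUSG00000040033, chr10:128270559-128292849, plus strand) had 210.5, 146.7, 164.1, 169.1 and 162.7 CPM in libraries labelled knockout 1 to 5, and 329.5, 407.4, 237.0 and 310.8 CPM in controls 1 to 4. All libraries labelled knockout lay below all controls. Control 3 was the lowest of the controls, and library 1 the highest of the libraries labelled knockout. The means were 170.6 ± 23.8 CPM in the libraries labelled knockout and 321.2 ± 70.0 CPM in controls, 1.88-fold lower. The log2 fold change was -0.91 ± 0.16 (SE; 95% interval -1.26 to -0.57; adjusted p = 0.00218), and the adjusted p stayed between 1.07e-06 and 0.0240 over the 19 alternatives. Stat2 was the only member whose promoter window held the ISRE letters, which occur on the strand opposite to the gene at 222 bases before the start. The stretch around them (chr10:128270256-128270305, GRCm38.p6, gene strand) is shown with the ISRE match in capitals.
Stat2: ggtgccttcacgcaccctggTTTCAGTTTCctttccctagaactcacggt

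Irf9, the DNA-binding subunit of ISGF3, had a smaller difference that did not pass the test. The gene (ENSMUSG00000002325, chr14:55603571-55610030, plus strand) had 129.1, 96.8, 108.7, 106.3 and 98.9 CPM in libraries labelled knockout 1 to 5, and 142.6, 155.6, 108.2 and 127.8 CPM in controls 1 to 4. The ranges overlapped: library 1 of those labelled knockout lay above controls 3 and 4, and library 3 just above control 3. The log2 fold change was -0.31 ± 0.12 (SE; 95% interval -0.58 to -0.04; adjusted p = 0.0828). It passed without control 3 (-0.40, adjusted p = 0.0342) and without library 1 of those labelled knockout (-0.38, adjusted p = 0.0390). Irf9 shares 2.28% of its exon bases with Rnf31, the gene just before it on the same strand, and Rnf31 was itself lower, with 68.2 CPM in the libraries labelled knockout and 114.8 CPM in controls.

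The ratio of Stat2 to Irf9 transcripts was separate between the groups, and the proteins of ISGF3 were not measured. The level of Stat2 in TPM was 1.37 to 1.496 times that of Irf9 in the libraries labelled knockout (mean 1.43 ± 0.06) and 1.99 to 2.38 times in controls (mean 2.17 ± 0.17). The ranges did not overlap. This ratio is given as a description with no test.

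Irf1 was about 2-fold lower. IRF1 is an activator induced by interferon gamma and by inflammatory cytokines, and drives antigen presentation and guanylate-binding protein genes. The gene (ENSMUSG00000018899, chr11:53770014-53778374, plus strand) had 194.5, 271.2, 205.8, 124.8 and 144.2 CPM in libraries labelled knockout 1 to 5, and 506.8, 433.3, 254.7 and 336.7 CPM in controls 1 to 4. The groups overlapped only in that library 2 of those labelled knockout exceeded control 3. The means were 188.1 ± 57.4 CPM in the libraries labelled knockout and 382.9 ± 110.2 CPM in controls, 2.04-fold lower. The log2 fold change was -1.03 ± 0.26 (SE; 95% interval -1.60 to -0.45; adjusted p = 0.0145), and the adjusted p stayed between 5.54e-04 and 0.0466 over the alternatives. The predicted gene Gm17334 overlaps 3.40% of the exon bases of Irf1 on the other strand, and it lay at 0.345 CPM in the libraries labelled knockout and 1.10 CPM in controls.

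Irf7, the factor that amplifies type I interferon production and is itself an interferon-induced gene, had the largest fold change of the 9 genes. It lies at chr7:141262706-141266481 on the minus strand (ENSMUSG00000025498). It had 109.5, 67.9, 69.4, 74.3 and 58.1 CPM in libraries labelled knockout 1 to 5, and 207.3, 278.8, 94.5 and 162.5 CPM in controls 1 to 4. The overlap was between library 1 of those labelled knockout, the highest of its group, and control 3, the lowest. The controls were widely spread, at 185.8 ± 77.4 CPM, beside 75.8 ± 19.7 CPM in the libraries labelled knockout. Irf7 was 2.45-fold lower, with a log2 fold change of -1.29 ± 0.29 (SE; 95% interval -1.94 to -0.65; adjusted p = 0.00881). The adjusted p stayed between 7.63e-05 and 0.0483 over the alternatives. Irf3, the constitutive relative of Irf7 that is activated by phosphorylation, lay at 112.5 ± 13.5 CPM in the libraries labelled knockout and 114.7 ± 10.6 CPM in controls (log2 fold change -0.03, 95% interval -0.25 to 0.20, adjusted p = 0.867). The promoter window of Irf7 held none of the searched letters.

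Irf8 went the other way from Irf1 and Irf7. IRF8 is best known as a factor of myeloid and B cell development and is also induced by interferon gamma. The gene (ENSMUSG00000041515, chr8:120736358-120756694, plus strand) had 189.7, 225.7, 236.6, 154.3 and 176.9 CPM in libraries labelled knockout 1 to 5, and 147.6, 140.4, 128.1 and 149.3 CPM in controls 1 to 4. All libraries labelled knockout lay above all controls, with a gap of a few CPM between library 4 and control 4. The means were 196.6 ± 34.2 CPM in the libraries labelled knockout and 141.3 ± 9.61 CPM in controls, 1.39-fold higher. The log2 fold change was 0.48 ± 0.13 (SE; 95% interval 0.19 to 0.76; adjusted p = 0.0196). The call was lost without control 2 (0.47, adjusted p = 0.0548) and without control 3 (0.43, adjusted p = 0.0616), and the difference was 0.30 (adjusted p = 0.0434) without libraries 2 and 3 of those labelled knockout together.

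Because leukocytes express Irf8, their markers are given beside it. The 13 Kupffer cell markers summed to 470.8, 847.6, 153.1, 254.0 and 123.3 CPM in libraries labelled knockout 1 to 5, and 599.7, 350.0, 164.0 and 341.3 CPM in controls 1 to 4. Of these 13, edgeR called 0, as did DESeq2 and limma-voom, with 0 at an unadjusted p under 0.05. Among the libraries labelled knockout, library 3 had the highest Irf8 and a Kupffer sum of 153.1 CPM, whereas library 2 had the next highest Irf8 and the highest Kupffer sum. Control 3 had the lowest Irf8 and the lowest Kupffer sum of the controls. The 5 markers common to leukocytes summed to 23.4 to 73.9 CPM in the libraries labelled knockout and 27.98 to 54.2 CPM in controls. The 6 B cell markers summed to 4.04 to 9.32 CPM in the libraries labelled knockout and 1.48 to 7.21 CPM in controls. Neither list had a gene called by edgeR, DESeq2 or limma-voom, with 0 at an unadjusted p under 0.05. Neutrophil markers were higher in the libraries labelled knockout, at 9.72 to 26.3 CPM against 0.410 to 4.25 CPM in controls. Of 7 listed, 4 were tested and called higher (14.5% of all genes tested). Ly6g, Camp, Ngp and Mpo were at 0 counts in all controls. The 4 tested markers (S100a8, S100a9, Ngp and Retnlg) passed the count filter only through the libraries labelled knockout. S100a8 and S100a9 were each at 0.189 CPM (6 counts) in control 3, and Retnlg had 17 counts over all controls. The number called is therefore not independent of that filter and is no result about these markers. Platelet and megakaryocyte markers were also higher, with sums of 63.4 to 136.0 CPM in the libraries labelled knockout and 22.6 to 36.5 CPM in controls. Of these 5 markers 4 were called higher, and Gp9 (11 counts over all controls) likewise passed the filter only through the libraries labelled knockout. Of 9 dendritic cell markers, Zbtb46 and Clec9a made up nearly all of the sum. Clec9a was higher and Zbtb46 lower, while Flt3, Xcr1, Siglech, Cd209a, Ccr9 and Cd300c each averaged under 0.2 CPM in both groups. The part of macrophage, neutrophil or platelet RNA in the Irf8 level was not tested.

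The upstream sequences of Irf1 and Irf8 are shown together because both hold GAS letters while their transcripts differed in opposite directions. Irf1 holds 1 match at 90 bases before the start (chr11:53769904-53769952, plus strand). Irf8 holds 2 matches, at 171 and 153 bases before the start (chr8:120736167-120736233, plus strand). Capitals mark the GAS letters.
Irf1: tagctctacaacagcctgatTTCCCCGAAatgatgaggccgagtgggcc
Irf8: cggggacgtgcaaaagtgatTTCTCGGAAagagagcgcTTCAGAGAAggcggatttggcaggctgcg

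The opposite directions also appeared as a ratio within each library. Irf8 stood at 0.469 to 0.697 times the level of Irf1 in TPM in the libraries labelled knockout, and at 0.164 to 0.283 times in controls, with no overlap. This ratio was not tested.

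Sex was unevenly spread over the groups, so the called members were also compared within each sex, where only 1 control was female. Among males, Irf7 averaged 88.7 CPM in the libraries labelled knockout and 216 CPM in controls, Irf1 averaged 233 CPM in the libraries labelled knockout and 426 CPM in controls, and Stat2 averaged 179 CPM in the libraries labelled knockout and 349 CPM in controls. Among females, Irf7 averaged 67.3 CPM in the libraries labelled knockout and had 94.5 CPM in the control, Irf1 averaged 158 CPM in the libraries labelled knockout and had 255 CPM in the control, and Stat2 averaged 165 CPM in the libraries labelled knockout and had 237 CPM in the control. All 3 were lower within both sexes. With sex as a term in the fit the log2 fold changes were -0.99 for Irf7, -0.80 for Irf1 and -0.80 for Stat2 (adjusted p = 0.0197, 0.0181 and 0.00629). Ifnar1 averaged 183 CPM in male libraries labelled knockout and 116 CPM in male controls, and 182 CPM in female libraries labelled knockout and 115 CPM in the female control. Irf8 averaged 208 CPM in male libraries labelled knockout and 146 CPM in male controls, and 189 CPM in female libraries labelled knockout and 128 CPM in the female control. Ifnar2 was likewise higher in both sexes. All 6 calls held with the sex term.

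Some libraries were at the extremes of their group for several members. Control 3 had the lowest level among controls for Stat2, Irf9, Irf1, Irf7 and Irf8, and it was the female control. Control 2 had the highest Stat2, Irf9 and Irf7. Among the libraries labelled knockout, library 1 had the highest Stat2, Irf9 and Irf7, whereas Irf1 was highest in library 2. The summed interferon-induced target genes had the same extremes among controls. The 22 listed targets of ISGF3 summed to 1749, 921, 1244, 1279 and 1096 CPM in libraries labelled knockout 1 to 5, and 3637, 4267, 1977 and 2352 CPM in controls 1 to 4. The lowest control sum, of control 3, was still above the highest sum in the libraries labelled knockout, of library 1. The 18 listed interferon gamma response genes summed to 1416, 1013, 1086, 1037 and 1032 CPM in libraries labelled knockout 1 to 5, and 3338, 3814, 1963 and 2463 CPM in controls 1 to 4. The receptors had other extremes: Ifnar1 was highest in library 3 and Ifnar2 in library 4 of those labelled knockout.

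**Figure D3:**
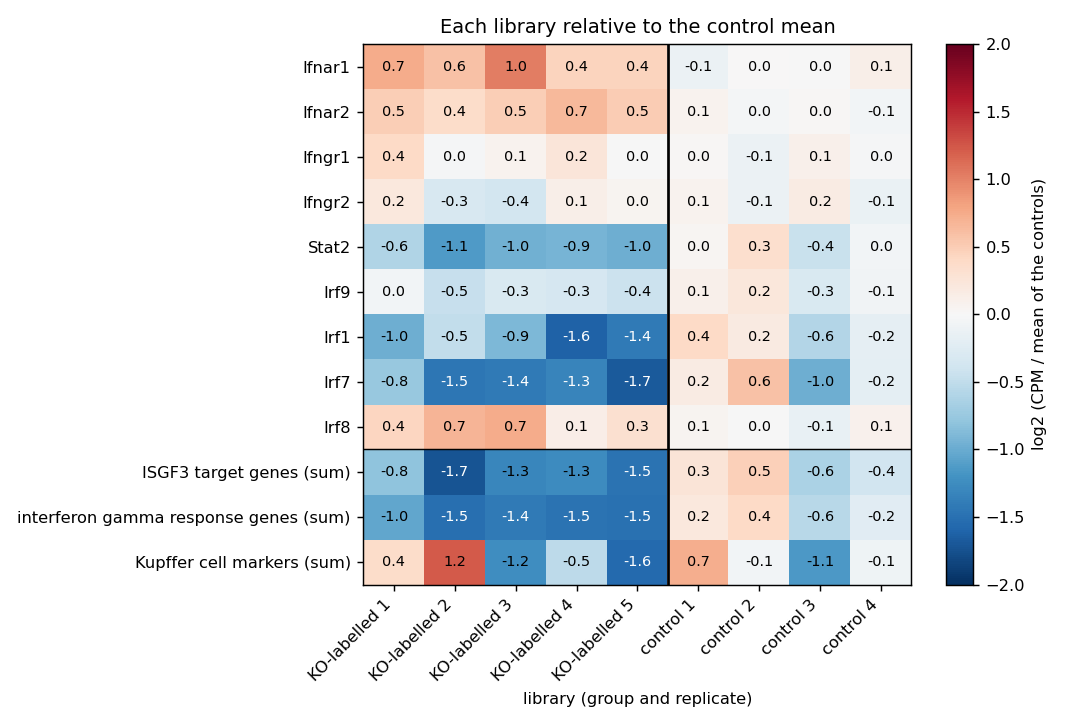
Log2 ratio of each library to the mean of the controls (colour and printed value) for the 9 genes, for the summed CPM of both target lists and for the summed Kupffer cell markers; the 5 libraries labelled knockout are left of the black line and the 4 controls right of it. Among controls, control 3 lies furthest below 0 for Stat2, Irf9, Irf1, Irf7 and both target sums. Control 4 is also below 0 for each of these, by less, and the Kupffer sum varies in both groups.

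The kinases and other STATs that work with these genes were called in both directions. Of 10 listed JAKs, other STATs and receptor chains of interferon lambda, 8 were tested, 4 were higher, 1 was lower and 3 did not pass. Of all genes tested, 14.5% were higher and 14.8% lower. The median log2 fold change was 0.44 over the list and 0.01 over all genes, with no test of these differences. This list, too, was chosen with earlier results of these data known. Tyk2, the kinase on IFNAR1, had 69.2, 69.3, 79.4, 69.4 and 86.8 CPM in libraries labelled knockout 1 to 5, and 100.2, 108.3, 124.4 and 115.6 CPM in controls 1 to 4. It was lower with no overlap (log2 fold change -0.58 ± 0.09, SE; adjusted p = 0.00165), so the transcripts of the receptor chain and of its kinase moved in opposite directions.

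Jak1, the kinase of IFNAR2 and IFNGR1, was 1.31-fold higher at 2358 ± 237 CPM in the libraries labelled knockout and 1803 ± 135 CPM in controls (adjusted p = 0.0361). That call was lost on leaving out any single control, or library 1, 2 or 5 of those labelled knockout (adjusted p 0.0502 to 0.114). It was also lost with the sex term (0.0501) and with the replicate number as a term (0.177). Jak2, the kinase of IFNGR2, did not pass, at 212.4 ± 53.8 CPM in the libraries labelled knockout and 151.5 ± 8.17 CPM in controls (log2 fold change 0.49, adjusted p = 0.0786). Without library 2 of those labelled knockout, the lowest at 123.2 CPM, it passed (0.64, adjusted p = 0.00112), as it did with DESeq2 (adjusted p = 0.0412). Stat3 and Stat5a, transducers of other cytokines, were higher, with log2 fold changes of 0.57 and 0.67 (adjusted p = 7.26e-04 and 0.00271), and Stat5b and Stat6 did not pass.

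**Figure D4:**
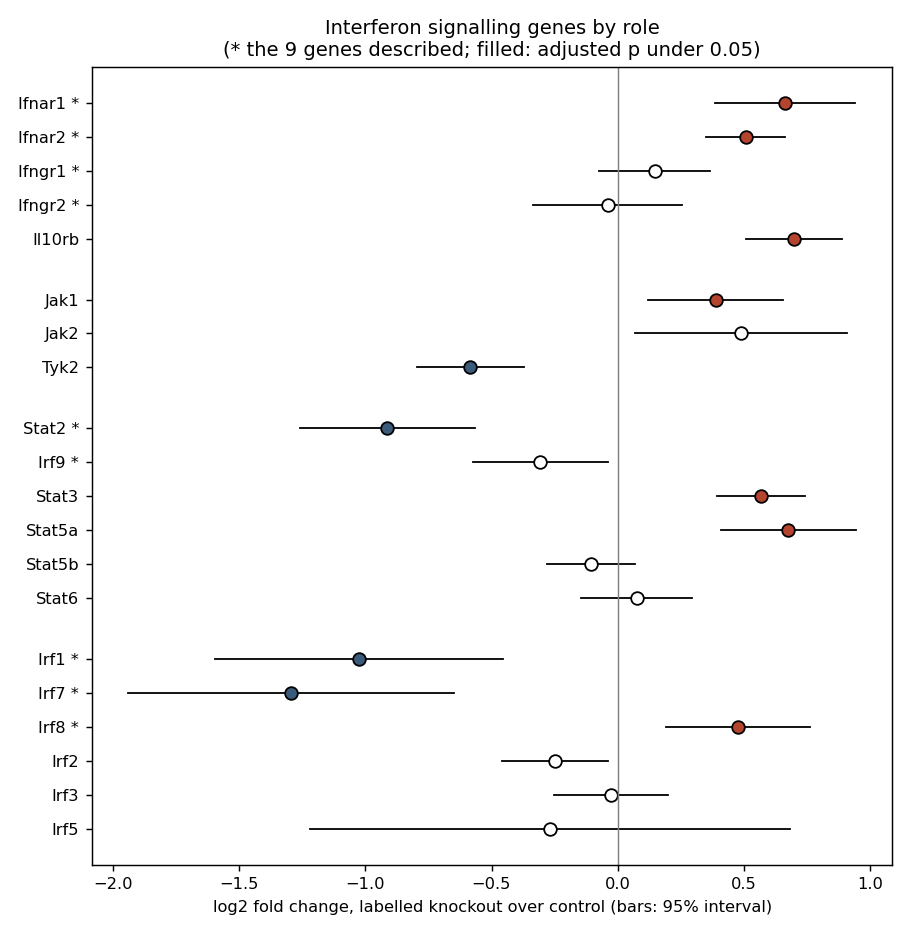
Log2 fold change, libraries labelled knockout over controls, with 95% intervals, for receptors, kinases, STATs with Irf9 and IRFs in blocks from top to bottom; asterisks mark the 9 genes and filled points an adjusted p under 0.05 (red higher, blue lower). Ifnar1, Ifnar2 and Il10rb lie right of 0, and Tyk2, Stat2, Irf1 and Irf7 lie left of it.

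The remaining lists place the members in the pathway. Of 21 interferon genes, none passed the count filter, 19 had 0 counts in every library, and Ifng and Ifnb1 had 18 counts in all. A count of 0 allows up to 3 counts, which is 0.0780 to 0.1105 CPM depending on the library, and covers counting error only. Of 5 other IRFs, 4 were tested and edgeR, DESeq2 and limma-voom called 0, with 1 (Irf2, lower) at an unadjusted p under 0.05. Of 10 adaptors and kinases that activate IRFs, 2 were higher and 8 did not pass. Over all genes tested the shares were 14.5% higher and 14.8% lower, so this count is no result about the list. None of the 10 was called lower by edgeR, DESeq2 or limma-voom, with 1 at an unadjusted p under 0.05. The higher ones were Tmem173, which encodes the DNA-sensing adaptor STING (142.3 CPM in the libraries labelled knockout and 93.9 CPM in controls, adjusted p = 0.00454), and Ticam1, the Toll-like receptor adaptor TRIF (27.4 CPM in the libraries labelled knockout and 18.3 CPM in controls, adjusted p = 0.00422).

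Of 15 inhibitors of interferon signalling, 2 were higher, 2 were lower and 11 did not pass, where 14.5% of all tested genes were higher and 14.8% lower. The share called is close to that background and is no result about inhibitors as a group. Socs1, an interferon-induced inhibitor of JAKs, had 12.9, 20.1, 22.2, 6.22 and 9.78 CPM in libraries labelled knockout 1 to 5, and 40.8, 32.7, 19.98 and 34.5 CPM in controls 1 to 4. It was lower (log2 fold change -1.17, adjusted p = 0.0345). The call was lost without control 1, 2 or 4 or library 1 or 5 of those labelled knockout (adjusted p 0.0687 to 0.0943). It was also lost with the sex term (0.0905), without the count filter (0.104) and with the replicate number as a term (0.124). The SUMO ligase Pias1 was lower at 60.8 CPM in the libraries labelled knockout and 74.9 CPM in controls (adjusted p = 0.0193). The adjusted p was 0.0559 without control 3, 0.0524 without control 4, and 0.0787 without libraries 2 and 3 of those labelled knockout together. The phosphatase Ptpn2 was higher (adjusted p = 0.0299), and the call was lost without any of controls 1 to 3 or libraries 1, 3 and 5 of those labelled knockout (adjusted p 0.0535 to 0.0863). It was also lost without libraries 2 and 3 of those labelled knockout together (0.0797) and with the replicate number as a term (0.153). The corepressor Irf2bp2 was higher (adjusted p = 0.0388), and its call was lost without any control or library 1 of those labelled knockout (adjusted p 0.0554 to 0.0987) and with the sex term (0.0870). Usp18, which blocks IFNAR2 and is interferon-induced, did not pass (33.6 ± 9.61 CPM in the libraries labelled knockout and 48.1 ± 17.8 CPM in controls, adjusted p = 0.179).

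Most of the interferon-induced targets were lower. Of the 22 ISGF3 targets 17 were lower and 5 did not pass, with a median log2 fold change of -1.37. Of the 18 interferon gamma response genes, 16 were lower and 2 did not pass, with a median of -1.30. Of all genes tested, 14.8% were lower. In the first list Oas1a lost its call under 12 of the 19 alternatives and Xaf1 under 10. Mx1 lost it under 2, and Isg15 and Ifi44 under 1 each. Oas2, Bst2 and Zbp1, which did not pass, were called lower under 2 each, and Eif2ak2 under 3. In the second list Psmb10 lost its call under 5 and Irgm2 under 2. In both lists edgeR, DESeq2 and limma-voom called 0 genes higher, with 0 at an unadjusted p under 0.05. The targets with the smallest p were Cmpk2 (4.82-fold lower), Rsad2 (4.88-fold lower), Parp14 (2.24-fold lower) and Ifit3b (6.24-fold lower) in the first list, and Gbp2 (5.02-fold lower), Nlrc5 (3.71-fold lower), Tap2 (1.72-fold lower) and Gbp4 (2.29-fold lower) in the second. Nlrc5 is the transactivator of class I antigen presentation genes, and Tap2 a subunit of the peptide transporter. The lists were chosen with earlier results of these data known, and their direction is not independent evidence.

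**Figure D5:**
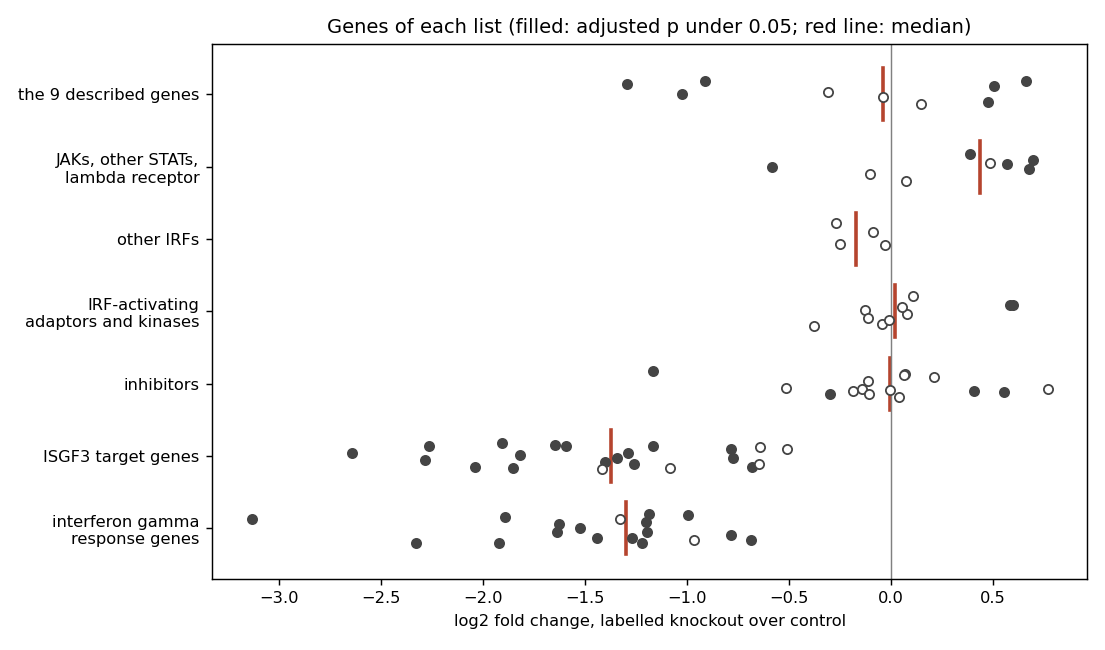
Log2 fold change, libraries labelled knockout over controls, of every tested gene in each list (points, filled at an adjusted p under 0.05; small vertical shifts only separate the points), with the median as a red line. Both target lists lie wholly below 0 with medians of -1.37 and -1.30, whereas the 9 upstream genes and their partners fall on both sides.

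Compared per length, the order of the 9 genes changed between groups. In the libraries labelled knockout the highest was Irf1 at 198 ± 57.2 TPM, followed by Ifnar2 at 157 ± 13.0 TPM, Ifngr1 at 144 ± 18.2 TPM and Ifnar1 at 129 ± 26.02 TPM. Below them came Stat2 at 121 ± 17.1 TPM, Irf8 at 117 ± 21.6 TPM, Ifngr2 at 93.8 ± 16.2 TPM, and Irf7 and Irf9 at 84.0 ± 21.2 and 84.0 ± 10.4 TPM. All neighbours in that order overlapped. In controls Irf1 was also the highest, at 380 ± 105 TPM, but Stat2 at 214 ± 46.4 TPM and Irf7 at 194 ± 80.2 TPM came next. The receptors Ifngr1 at 122 ± 7.61 TPM and Ifnar2 at 104 ± 2.83 TPM followed, then Irf9 at 97.9 ± 14.5 TPM, Ifngr2 at 90.9 ± 8.33 TPM, Irf8 at 79.2 ± 5.77 TPM and Ifnar1 at 76.9 ± 6.21 TPM. Among neighbours in the control order only Ifngr1 and Ifnar2 did not overlap. Ifnar1 was therefore the lowest of the 9 in controls and the fourth in the libraries labelled knockout, and Irf7 the third in controls and next to last in the libraries labelled knockout. In both groups all 9 genes lay above 83.1% of the genes tested.

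The genes with the most similar profile over the 9 libraries were found for each called member by the root mean square difference of centred log2(CPM + 1) values, over 8647 genes with a mean of at least 10 CPM. For Irf7 they were Rtp4 (0.165), Dhx58 (0.167) and Oasl2 (0.170). For Stat2 they were Parp12 (0.080), Znfx1 (0.090) and Rnf213 (0.105). These distances are in log2 units. For Irf1 the nearest were further away, Ier5 (0.186), Nfkbid (0.245) and Siah2 (0.256). For Ifnar1 they were Agps (0.077), Smarcb1 (0.089) and Stxbp3 (0.090), for Ifnar2 Tspan31 (0.048), Prkar1a (0.059) and Vamp8 (0.061), and for Irf8 Plscr1 (0.063), Bcat2 (0.071) and Dnajb6 (0.071). The libraries fall into separate groups, so this likeness includes the difference between the groups.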

How the data were processed

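The values are raw counts by Ensembl gene, as the authors deposited them (52636 rows, 1 column per library, 0 columns unused). The submitters' processing notes name STAR 2.7.6a, FastQC 0.11.5 and GRCm38. Not given in the sources used here: the counter, the annotation release and the use of strand. Per the labels' protocols, libraries came from an unstranded or a stranded TruSeq kit, with no record of which library had which, so reads of overlapping genes on opposite strands may be merged. Symbols (52489 genes), coordinates and exon lengths came from a GENCODE annotation of GRCm38.

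Genes were filtered with filterByExpr (minimum count 10, minimum total 15), which kept 14583 genes. After TMM scaling, edgeR 4.0.16 (R 4.3.3; robust glmQLFit, then glmQLFTest) compared libraries labelled knockout with controls without covariates. Its p-values were adjusted by Benjamini-Hochberg across the whole tested table and called at 0.05. The code was tested on simulated data. The standard error is the size of the log2 fold change over the square root of F, and intervals are 95%. CPM uses TMM-scaled totals; TPM uses counts and exon length, for levels between genes only. A chi-square test of each library pair within a group (20.3 to 182 for each degree of freedom) found none that could be a copy of another. Sex was read from Xist against Ddx3y. The 19 alternatives were DESeq2 1.42.0, limma-voom (limma 3.58.1), 3 other scalings, 2 other filters, a replicate block, a sex term, each library left out, and libraries 2 and 3 of those labelled knockout left out together.

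The members, lists and tests were chosen with earlier results of these data known. Named genes are the 9 members, Erg and Fli1, the partners Jak1, Jak2, Tyk2 and Irf3, up to 4 genes with the smallest p in each list, any called gene against most of its list, and 3 nearest profiles for each called member (predicted and RIKEN genes left out). Genes around the receptor cluster, genes overlapping a member, markers and genes named as not passing were named after their values were seen. So were the targets named for a call that changed under an alternative. 1 gene that the rule took is not reported here.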

Additional observations from a re-analysis of the deposited data

How the results depend on the processing

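Of the 6 called members, Ifnar1, Ifnar2, Stat2, Irf1 and Irf7 kept direction and call under all 19 alternatives. Irf8 lost its call with the replicate block (log2 fold change 0.50, adjusted p = 0.0779) and without control 2 or control 3; leaving out 1 library at a time gave 0.40 to 0.55. For Irf9 the same range was -0.40 to -0.23, and it passed without control 3 or without library 1 of those labelled knockout. Ifngr2 ranged from -0.11 to 0.0352 with 1 library left out; its sign turned without control 3 (0.0166), without library 2 (0.0251) or 3 (0.0352) of those labelled knockout, without both of these (0.138) and with library totals as the only scaling (0.0226). The cause of these changes was not tested. The replicate block called 2671 genes (1296 higher, 1375 lower) where the fit without it called 4271 (2110 higher, 2161 lower). The deviations of same-numbered libraries from their group means had correlations of 0.29, -0.03, -0.02 and -0.33 for numbers 1 to 4. So few values cannot decide whether the numbers pair the samples, and the labels state no pairing. The sample numbers in the column names differ from these replicate numbers for most libraries, and none is shared between the groups. The number of members called higher or lower and the counts of lowered targets stayed within 1.5 times of the main values under each alternative, and the median log2 fold change of all genes lay between -0.004 and 0.076. The numbers of called inhibitors moved further, in 8 (higher) and 10 (lower) of the 19. The biological coefficient of variation over the 9 libraries was 26.3%. The 95% intervals of the log2 fold change, not adjusted for the number of genes, were -0.07 to 0.37 for Ifngr1, -0.33 to 0.25 for Ifngr2 and -0.58 to -0.04 for Irf9.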
